A study of Caenorhabditis elegans with 18 samples.

Results

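The RNAs described here encode the RNA-dependent RNA polymerases EGO-1, RRF-1 and RRF-3, their partners DRH-3 and EKL-1, and the mutator proteins MUT-2, MUT-7, MUT-14, MUT-15 and MUT-16 of C. elegans. They were taken by gene name and number 10 of the 26709 genes in the count table. Each was measured in all 18 iCLIP libraries. iCLIP uses UV light to cross-link RNA to a protein and then sequences the pieces of RNA recovered with it, so that the read number of an RNA depends on both its abundance and its binding. The protein was FBF-1 or FBF-2, a pair of closely related RNA-binding proteins that maintain germline stem cells and act in the sperm/oocyte decision.

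Every FBF library came from early adult XX animals with hermaphrodite soma, kept at 25° since larval stage L1. The FBF-1 strains lack endogenous fbf-1 (allele ok91) and carry a single-copy 3xFLAG fbf-1 transgene, and the FBF-2 strains lack fbf-2 (allele q738) and carry 3xFLAG fbf-2. Protein and strain therefore cannot be told apart. Adults of these strains have an oogenic germline. The spermatogenic strains also carry fem-3(q22 ts,gf), kept over the balancer nT1. Each protein was assayed in 3 biological replicates of each germline gender, and each gender has 3 controls for which the FLAG antibody was left out. The labels do not say which tagged strain a control came from.

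FBF libraries held 18749 to 1833483 counts on genes and controls 59621 to 283777. The smallest library, FBF-1 oogenic replicate 1, had so few counts that 1 count stood for 53.3 RPM (reads-per-million, relative to all counts on genes) and that a count of 0 there allows up to 160 RPM. For each gender, libraries of the proteins were added in pairs to make 3 combined FBF replicates, of which the smallest library supplied 4.08% of oogenic replicate 1. Spermatogenic FBF libraries and oogenic controls were in sequencing lane 1, oogenic FBF libraries in lane 2 and spermatogenic controls in lane 3. Antibody and lane therefore cannot be told apart where the FBF libraries of a gender are compared with its own controls. The sperm markers, of which all 24 had reads in both genders, summed to 2824 to 2895 RPM in spermatogenic and 80.7 to 125 RPM in oogenic combined FBF replicates, in the direction of the labels. Ribosomal RNA took 12.6% to 16.3% of spermatogenic FBF libraries, 31.2% to 36.6% of FBF-2 oogenic libraries, 39.3% of the smallest library and at most 17.7% of the other FBF-1 oogenic libraries, and 32.2% to 50.6% of controls.

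RNA-dependent RNA polymerases copy an RNA template into complementary strands, and in C. elegans they make most of the small RNAs that guide Argonaute proteins in gene silencing. EGO-1 is the polymerase of the germline, RRF-1 acts with it there and is the main one in the soma, and RRF-3 makes the primary endogenous small RNAs of the ERI pathway. DRH-3, a Dicer-related helicase, and EKL-1, a Tudor domain protein, work with EGO-1 and RRF-1. The mutator proteins are needed for RNA interference, for silencing of transposons and for amplification of small RNAs, and gather in perinuclear foci of germ cells. MUT-16 is the scaffold of these foci, MUT-2 is a nucleotidyltransferase that tails the template RNAs, MUT-7 has an exonuclease domain, MUT-14 is a DEAD-box helicase and MUT-15 is a further component of the complex.

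The genes lie on 4 chromosomes, with 6 of the 10 on chromosome I (coordinates of WBcel235). rrf-1 spans chromosome I from 7643431 to 7649777 and ego-1 from 7650341 to 7656338, on the same strand and 563 bases apart. ekl-1 (7095486 to 7098400), drh-3 (7820831 to 7826378), mut-2 (6356614 to 6358411) and mut-16 (10080159 to 10085765) are on the same chromosome. rrf-3 lies on chromosome II from 8162465 to 8168651 and mut-7 on chromosome III from 9539031 to 9542380. mut-14 and mut-15 lie on chromosome V, from 5658713 to 5660704 and from 15002543 to 15005067. Exons of rrf-3 overlap those of T05C12.11, and exons of mut-2 those of bli-4, on the opposite strand. The strand setting of the counting is not given in the sources used here, so reads of rrf-3 and mut-2 may include some of these neighbours. Reads that mapped to several places had been removed, which may lower the counts of related genes such as ego-1 and rrf-1, or mut-14 and its paralog smut-1.

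The first question was whether these RNAs were recovered with the antibody above the level without it. 9 of the 10 were, in both germline genders. mut-7 and mut-14 stood furthest above the controls and ekl-1 was not called in either gender. Together the 10 RNAs took 2429 ± 61.1 RPM of the combined FBF replicates from spermatogenic germlines and 282 ± 60.4 RPM of their controls (SD, n = 3 each). The corresponding sums in oogenic germlines were 1670 ± 189 RPM and 262 ± 19.6 RPM (SD, n = 3 each). All sums of FBF replicates lay above all sums of controls.

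**Figure D1:**
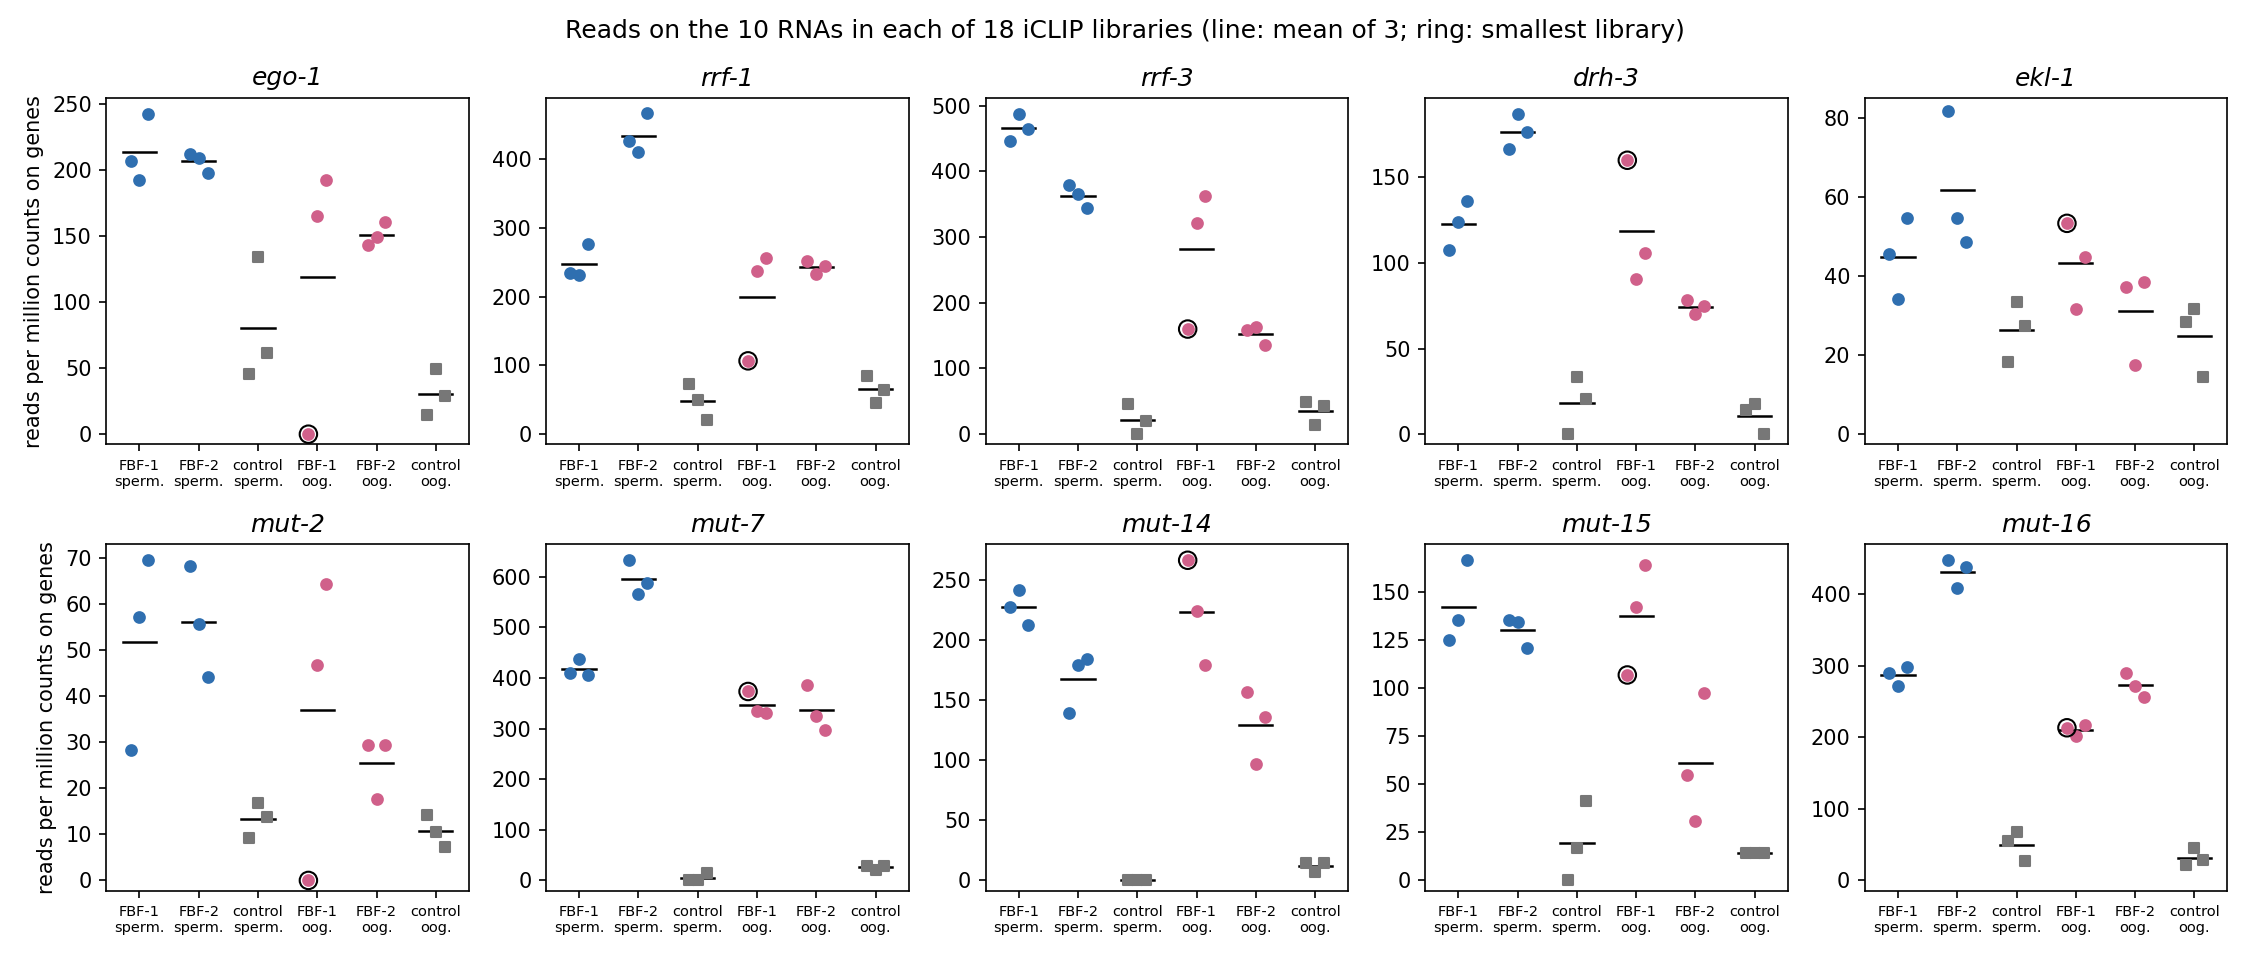
RPM for each of the 10 RNAs (vertical axis of each panel, starting near 0) in each of the 18 libraries, 3 per condition, with the mean as a line and the smallest library ringed. mut-7 lay at 297 to 633 RPM in the 12 FBF libraries and at 0 to 28.8 RPM in the 6 controls, while the points of ekl-1 in FBF and control libraries came close to each other or crossed.

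RNAs were called by edgeR's quasi-likelihood test with library-size scaling, where they changed by more than 2-fold and their Benjamini-Hochberg adjusted p, over all RNAs tested, was under 0.01. By that rule 9 of 10 RNAs were called higher with the antibody in spermatogenic germlines, against 29.2% of 8269 RNAs tested, and 9 of 10 in oogenic germlines, against 29.6% of 6424. The median log2 fold change of the 10 was 2.97 in spermatogenic germlines, with the mut-14 control set at 3 counts, and 0.71 over all RNAs tested. In oogenic germlines these medians were 2.80 and 0.90. The share of all RNAs called depended on the count minimum. At a minimum average of 100 counts, 8 of the 10 RNAs were tested, and all 8 were called higher in each gender. Of all RNAs, 2032 of 3669 were then called higher in spermatogenic and 1354 of 2560 in oogenic germlines. The median over all RNAs was then 1.34 and 1.26, and that of the 8 was 3.12 and 2.92. Germline markers, all 8 with reads in every group, moved the same way, from 487 to 503 RPM in spermatogenic controls to 6591 to 7590 RPM in FBF replicates and from 791 to 835 RPM to 8975 to 11067 RPM in oogenic germlines, most of it on gld-1. Markers of body-wall muscle moved the other way, at 11120 to 12471 RPM in spermatogenic controls and 7398 to 8340 RPM in FBF replicates, and at 9401 to 9645 RPM and 5959 to 6102 RPM in oogenic ones. Their part in the result was not tested.

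Among the polymerases, rrf-3 had the largest fitted rise over the control in both genders. Its combined FBF replicates held 426, 403 and 414 RPM in spermatogenic germlines, and the controls 45.9, 0 and 20.6 RPM. In oogenic germlines they held 137, 283 and 318 RPM, and the controls 49.5, 14.1 and 43.1 RPM. The groups did not overlap in either gender, although oogenic replicate 1, which was almost wholly FBF-2, held less than either of the others. The log2 fold change was 4.02 (SE 0.34, edgeR adjusted p = 2.28e-30) in spermatogenic and 2.99 (SE 0.40, edgeR adjusted p = 6.96e-07) in oogenic germlines.

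rrf-1 held 341, 329 and 357 RPM in spermatogenic FBF replicates and 73.5, 50.3 and 20.6 RPM in the controls. Its oogenic FBF replicates held 239, 236 and 256 RPM, and the controls 84.9, 45.8 and 64.7 RPM. FBF replicates of each gender lay close together and well above all controls. The log2 fold changes were 2.94 (SE 0.30, edgeR adjusted p = 1.27e-20) and 1.97 (SE 0.30, edgeR adjusted p = 3.28e-06) in the spermatogenic and oogenic gender.

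ego-1, the germline polymerase and neighbour of rrf-1, held 45.9, 134 and 61.8 RPM in the spermatogenic controls against 204, 208 and 223 RPM with the antibody. In oogenic germlines it held 154, 161 and 182 RPM with the antibody and 14.1, 49.3 and 28.8 RPM without. The lowest FBF replicate lay above the highest control in each gender, and in RPM the spermatogenic FBF replicates lay above the oogenic ones. The log2 fold change was 1.59 (SE 0.29, edgeR adjusted p = 2.02e-07) in spermatogenic and 2.28 (SE 0.36, edgeR adjusted p = 6.96e-06) in oogenic germlines. In the 3 oogenic FBF-1 libraries on their own, ego-1 had 0, 120 and 353 counts, the 0 in the smallest library.

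The polymerase partners differed from each other. drh-3 held 148, 150 and 153 RPM in spermatogenic FBF replicates against 0, 33.5 and 20.6 RPM in the controls. In oogenic germlines it held 78.3, 86.0 and 99.8 RPM against 14.1, 17.6 and 0 RPM. It was called in both, at log2 fold changes of 3.23 (SE 0.46, edgeR adjusted p = 2.12e-11) and 2.85 (SE 0.50, edgeR adjusted p = 2.99e-05).

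ekl-1 was the exception among the 10. It held 60.9, 50.5 and 52.1 RPM in spermatogenic FBF replicates and 18.4, 33.5 and 27.5 RPM in their controls, which did not overlap. In oogenic germlines the FBF replicates at 39.1, 28.3 and 43.1 RPM overlapped the controls at 28.3, 31.7 and 14.4 RPM. The log2 fold change was 1.07 (SE 0.50, edgeR adjusted p = 0.0662) in spermatogenic and 0.50 (SE 0.45, edgeR adjusted p = 0.365) in oogenic germlines, with approximate 95% intervals of 0.08 to 2.06 and -0.39 to 1.39. The controls held 8 and 15 counts on it in all. The spermatogenic interval lay above 0, but the value missed the threshold after adjustment over all RNAs. Set against all 6 controls at once, spermatogenic ekl-1 passed the threshold (log2 fold change 1.04, edgeR adjusted p = 0.00672), the only alternative of 16 in which it did.

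mut-7 had the highest mean level of the 10 in the combined FBF replicates of both genders, although rrf-3 was higher in RPM in the spermatogenic FBF-1 libraries (446 to 487 against 405 to 438 RPM). Spermatogenic FBF replicates held 547, 494 and 482 RPM of it, while the controls held 0, 0 and 13.7 RPM. Oogenic FBF replicates held 300, 332 and 342 RPM and the controls 28.3, 21.1 and 28.8 RPM. In spermatogenic germlines this stood for 2713 counts with the antibody and 2 counts without it, a ratio of depth-scaled counts of 78.7 with a 95% counting interval of 21.8 to 650. The edgeR adjusted p was 1.52e-43. In oogenic germlines the log2 fold change was 3.69 (SE 0.32, edgeR adjusted p = 2.99e-10).

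mut-14 had no count in any of the 3 spermatogenic controls, where 0 of 314134 counts allows up to 9.55 RPM over the group. The spermatogenic FBF replicates held 184, 202 and 201 RPM. Summed over the group, the level with the antibody was at least 20.7-fold higher than without it (edgeR adjusted p = 6.71e-22). In oogenic germlines FBF replicates held 141, 194 and 175 RPM and controls 14.1, 7.05 and 14.4 RPM, a log2 fold change of 3.97 (SE 0.44, edgeR adjusted p = 2.31e-08). That was the largest fitted value of the 10 RNAs in oogenic germlines, within its error of that of mut-7.

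mut-16, the scaffold, held 371, 353 and 357 RPM in spermatogenic FBF replicates and 55.1, 67.1 and 27.5 RPM in the controls. Its oogenic values were 254, 219 and 233 RPM with the antibody and 21.2, 45.8 and 28.8 RPM without. The replicates of a gender were tight and far from the controls. Log2 fold changes were 3.01 (SE 0.30, edgeR adjusted p = 7.78e-22) and 2.76 (SE 0.33, edgeR adjusted p = 9.35e-08).

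mut-15 held 135, 130 and 147 RPM in spermatogenic FBF replicates against 0, 16.8 and 41.2 RPM in controls. In oogenic germlines it held 97.8, 115 and 140 RPM against 14.1, 14.1 and 14.4 RPM. It was called in both genders, at log2 fold changes of 2.62 (SE 0.43, edgeR adjusted p = 7.78e-09) and 3.06 (SE 0.44, edgeR adjusted p = 1.64e-06).

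mut-2 had the fewest counts of the called RNAs. It held 63.4, 42.9 and 58.7 RPM in spermatogenic FBF replicates and 9.18, 16.8 and 13.7 RPM in controls, and 28.3, 39.8 and 56.7 RPM against 14.1, 10.6 and 7.19 RPM in oogenic germlines. The groups did not overlap in either gender, and the controls together held 4 and 6 counts. The log2 fold changes were 2.07 (SE 0.62, edgeR adjusted p = 0.00237) and 2.04 (SE 0.56, edgeR adjusted p = 0.00409). These calls were the least stable of the 9, made in 10 of 16 alternatives in spermatogenic and 7 of 16 in oogenic germlines. The edgeR adjusted p was 0.0201 and 0.0470 with TMM and 0.0365 and 0.0363 without rRNA, tRNA and mitochondrial genes, in spermatogenic and oogenic germlines, and the DESeq2 adjusted p was 0.0462 and 0.135. With the controls of the other gender, the oogenic call was lost too (edgeR adjusted p = 0.0315). Without spermatogenic control replicate 1 or 3 the edgeR adjusted p was 0.0230 or 0.0264, and in oogenic germlines it was 0.0391 without combined FBF replicate 3 and 0.0114, 0.0426 and 0.0222 without control replicate 1, 2 and 3.

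The other 8 called RNAs stayed called in both genders in every alternative that tested them, which included TMM and DESeq2 scaling, each replicate left out and the controls of the other gender. With the oogenic controls, which were sequenced in the same lane as the spermatogenic FBF libraries, 9 of 10 RNAs were again called in spermatogenic germlines. Of all RNAs tested against those controls, 3805 of 8269 were called higher, and the median log2 fold change over all RNAs was 1.17. With TMM, 1795 of 2599 calls in spermatogenic germlines were higher with the antibody, against 2414 of 2892 with library sizes. In oogenic germlines it was 991 of 1807 against 1902 of 2011. With TMM 8 of the 10 RNAs were called higher in each gender, against those 1795 of 8269 and 991 of 6424 RNAs tested. The median over all RNAs fell by 0.35 on the log2 scale in spermatogenic and by 0.74 in oogenic germlines.

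**Figure D2:**
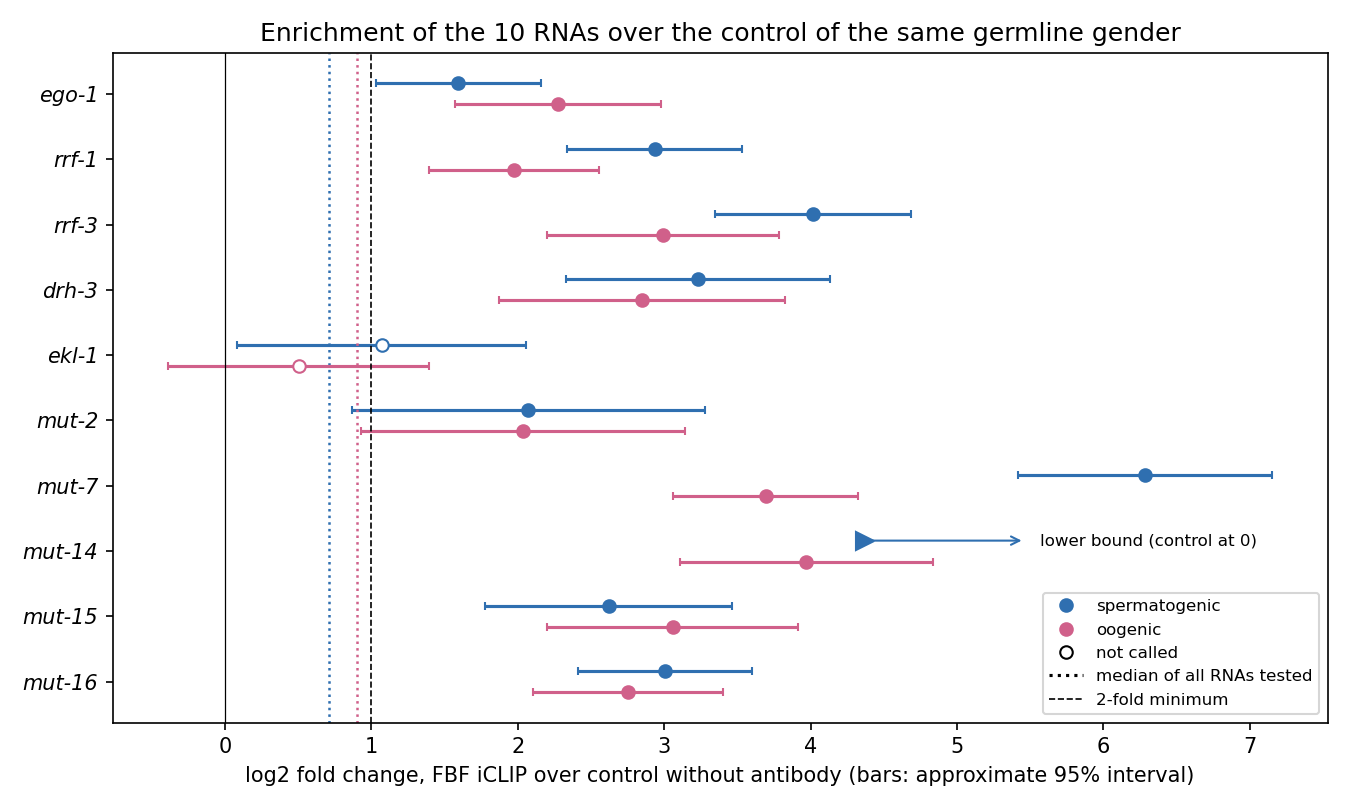
Log2 fold change of each RNA with the antibody over the control of the same gender, with approximate 95% intervals, filled where called (horizontal axis in log2 units; dotted lines are the medians of all RNAs tested, 0.71 and 0.90). The RNAs other than ekl-1 lay at 1.59 or above, and the spermatogenic value of mut-14 is a lower bound of 4.37 because its controls had no reads.

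To compare the RNAs with each other, RPM were divided by the annotated exon length in kb. In spermatogenic FBF replicates mut-7 led with 170 ± 11.6 RPM per kb, and its lowest replicate lay above the highest of the next RNA. mut-14 (112 ± 5.58 RPM per kb) and mut-16 (106 ± 2.79 RPM per kb) followed and overlapped (SD, n = 3 each). rrf-3, rrf-1 and mut-15 came next at 74.9, 68.1 and 66.9 RPM per kb, of which rrf-1 and mut-15 overlapped. drh-3, ego-1, mut-2 and ekl-1 were lowest at 42.8, 40.0, 35.3 and 25.4 RPM per kb, each overlapping its neighbour in that order.

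In oogenic FBF replicates the same 3 RNAs had the highest means, with mut-7 at 109 ± 7.38, mut-14 at 97.2 ± 15.2 and mut-16 at 69.0 ± 5.21 RPM per kb (SD, n = 3 each). mut-7 overlapped mut-14 there, mut-16 overlapped the next RNA, mut-15 (57.3 RPM per kb), and ekl-1 was again last at 17.2 RPM per kb. In the FBF-1 oogenic libraries alone, mut-14 averaged 128 and mut-7 116 RPM per kb and overlapped. mut-14 was the higher in 2 of those 3 libraries, and in the smallest library they had 5 and 7 counts. In the controls no RNA averaged above 15.2 RPM per kb, and almost all neighbours in the order overlapped, so their ranks cannot be told apart. ekl-1, the lowest with the antibody, averaged 12.3 and 11.6 RPM per kb in the spermatogenic and oogenic controls, and mut-7 and mut-14 averaged 1.53 RPM per kb and 0 in the spermatogenic ones.

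**Figure D3:**
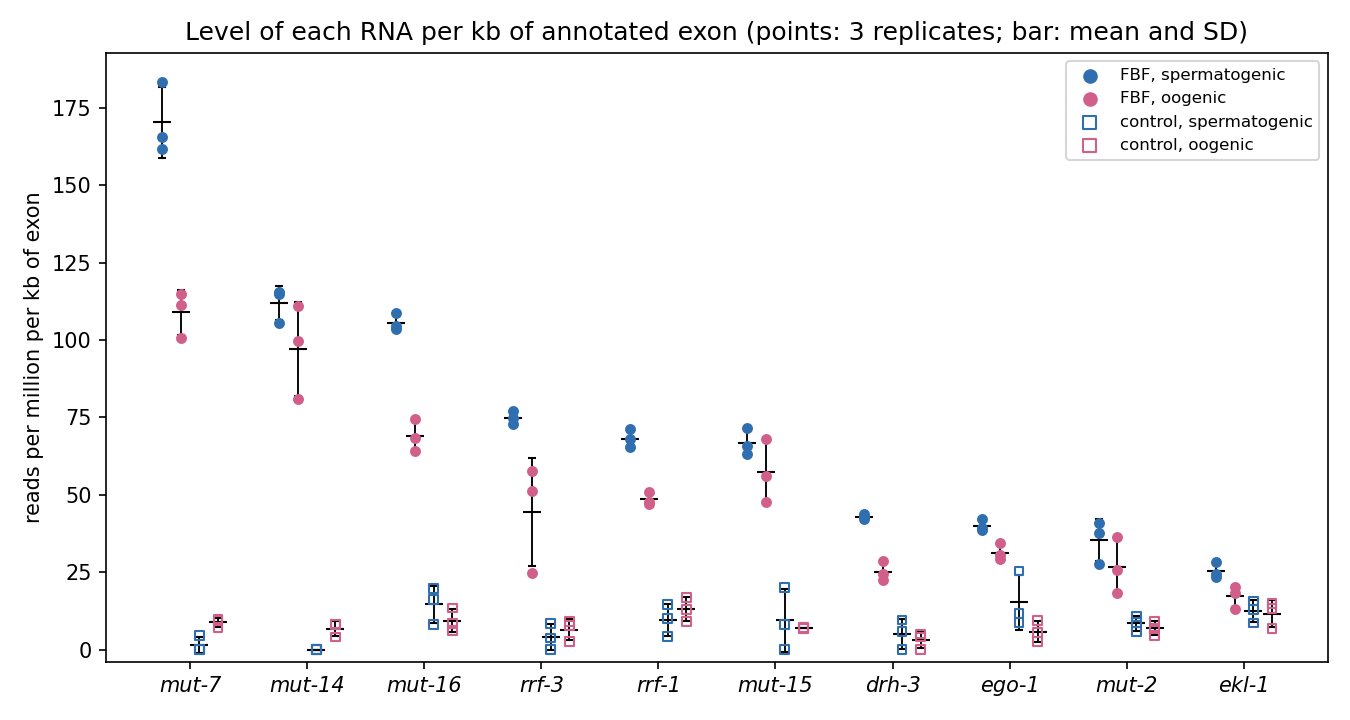
Level of each RNA as RPM per kb of annotated exon (vertical axis) in combined FBF replicates and controls of each gender, with 3 points per group and bars for the mean and SD. mut-7 had the highest mean with the antibody in both genders, at 170 and 109 RPM per kb, overlapping mut-14 in the oogenic one, and the control levels of the 10 RNAs were within 0 to 15.2 RPM per kb on average.

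The next question was whether FBF iCLIP differed between germline genders. By edgeR with TMM scaling, 0 of the 10 RNAs were called between spermatogenic and oogenic FBF replicates, against 14.9% of 7501 RNAs tested. DESeq2 also called 0, against 1075 of 7501 RNAs. Of the 10, 4 had an unadjusted edgeR p under 0.05, against 40.9% of all RNAs. Their log2 fold changes, spermatogenic over oogenic, ran from -0.03 to 0.54 with 8 of 10 above 0, and their median was 0.29 against -0.01 for all RNAs tested. In RPM the groups did not overlap for 7 of the 10, each time with the spermatogenic replicates higher, against 43.9% of all RNAs in either direction and 35.2% in that direction.

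drh-3 was the RNA with an adjusted p under 0.01. Its spermatogenic replicates at 148 to 153 RPM lay above the oogenic ones at 78.3 to 99.8 RPM, a log2 fold change of 0.54 (SE 0.13, edgeR adjusted p = 0.00263), which is under 2-fold. At any fold change, 23.2% of all RNAs passed that adjusted p. The log2 fold change was 0.71 in FBF-2 libraries alone and 0.28 in FBF-1 libraries alone (edgeR adjusted p = 0.000955 and 0.168). With DESeq2 the adjusted p was 0.0144. The edgeR adjusted p missed 0.01 without spermatogenic replicate 1, 2 or 3, without oogenic replicate 2 or 3, and with the libraries kept separate. It was at most 0.0246 with a combined replicate left out.

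rrf-3 (log2 fold change 0.49, SE 0.16, edgeR adjusted p = 0.0283), mut-7 (0.40, SE 0.15, edgeR adjusted p = 0.0441) and mut-16 (0.38, SE 0.16, edgeR adjusted p = 0.0722) had values above 0 that missed the threshold. So did ekl-1 at 0.33 and rrf-1 at 0.25. For ego-1, mut-2, mut-14 and mut-15 the log2 fold changes were 0.12, 0.04, -0.03 and -0.03, with approximate 95% intervals that lay within -0.33 and 0.41. A 2-fold difference was outside the approximate 95% interval of every one of the 10.

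The share of FBF-1 reads in a combined replicate was 43.8% to 57.7% in spermatogenic and 4.08% to 78.2% in oogenic germlines. Lane and gender cannot be told apart in these libraries. Oocyte markers, all 19 with reads, summed to 4315 to 4725 RPM in spermatogenic and 8538 to 13474 RPM in oogenic FBF replicates, and germline markers to 6591 to 7590 RPM and 8975 to 11067 RPM. Their part in the values of the 10 RNAs was not tested. Between genders, in these whole-animal lysates, fewer cells of a type and less RNA per cell cannot be told apart. With library-size scaling the median over all RNAs went from -0.01 to 0.19 on the log2 scale, and all 10 RNAs then had values above 0.

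The controls were compared in the same way, and lane and gender cannot be told apart between them either. ego-1, rrf-1 and mut-16 had enough reads to be tested there. By edgeR 0 of these 3 were called, against 13% of 3137 RNAs, with 0 at an unadjusted p under 0.05, against 29.2%. DESeq2 called 314 of the 3137 RNAs and 0 of these 3. Their log2 fold changes, spermatogenic over oogenic, were 0.75 (SE 0.52), -0.72 (SE 0.50) and 0.08 (SE 0.55). Whether the excess over the control differed between genders was tested as the interaction of antibody and gender, in which lanes are not balanced. By edgeR 0 of 10 were called, against 1.9% of 7305 RNAs, and DESeq2 called 0, against 134 of 7305. At an unadjusted edgeR p under 0.05 there were 3 (rrf-1, mut-7 and mut-14), against 14.7% of all RNAs. The excess of mut-7 was larger in spermatogenic germlines by 2.74 on the log2 scale (SE 0.91, edgeR adjusted p = 0.0709) and that of rrf-1 by 1.09 (SE 0.49, edgeR adjusted p = 0.258). The value of mut-7 rests on the 2 counts in the spermatogenic controls.

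FBF-1 and FBF-2 were then compared within each gender. By edgeR with TMM scaling, 0 of the 10 RNAs were called over 2-fold in either gender, against 5.72% of 6203 RNAs in spermatogenic and 8.06% of 4737 in oogenic germlines. Under 2-fold, however, several RNAs differed at an adjusted p under 0.01. In spermatogenic germlines these were rrf-1, drh-3, mut-7 and mut-16, 4 of 10 against 22.2% of all RNAs, and all were higher with FBF-2. DESeq2 gave the same 4. Without FBF-1 spermatogenic replicate 1 there were 2, rrf-1 and mut-16, with edgeR adjusted p = 0.0140 for drh-3 and 0.0101 for mut-7, and with library-size scaling there were 6, rrf-3 and mut-14 added. At an unadjusted edgeR p under 0.05 there were 6 in spermatogenic and 5 in oogenic germlines, against 41.3% and 39.4% of all RNAs. DESeq2 called 0 over 2-fold in both, against 315 of 6203 and 115 of 4737 RNAs.

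rrf-1 held 235, 232 and 277 RPM in the spermatogenic FBF-1 libraries and 426, 410 and 467 RPM in the FBF-2 libraries. The groups were far apart, with a log2 fold change, FBF-1 over FBF-2, of -0.84 (SE 0.12, edgeR adjusted p = 8.59e-07). mut-16 held 290.0, 272 and 298 RPM with FBF-1 and 448, 408 and 437 RPM with FBF-2, a log2 fold change of -0.63 (SE 0.11, edgeR adjusted p = 5.34e-05). mut-7 held 411, 438 and 405 RPM with FBF-1 and 633, 566 and 588 RPM with FBF-2.

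The FBF-2 libraries were thus the higher ones for both mutator RNAs, with a log2 fold change of -0.55 for mut-7 (SE 0.12, edgeR adjusted p = 0.000453). drh-3 held 107, 124 and 136 RPM with FBF-1 and 166, 187 and 176 RPM with FBF-2, a log2 fold change of -0.58 (SE 0.12, edgeR adjusted p = 0.000456). rrf-3 and mut-14 lay the other way without passing the adjusted p of 0.01. For rrf-3 the FBF-1 libraries held 446, 487 and 464 RPM and the FBF-2 libraries 379, 365 and 345 RPM, which did not overlap (log2 fold change 0.32, SE 0.11, edgeR adjusted p = 0.0309). mut-14 held 213 to 242 RPM with FBF-1 and 140 to 184 RPM with FBF-2 (log2 fold change 0.37, SE 0.12, edgeR adjusted p = 0.0209). In all, 6 of the 10 RNAs did not overlap between the proteins in RPM, against 42.3% of all RNAs tested.

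In oogenic germlines 5 RNAs had an adjusted p under 0.01, against 21.1% of all RNAs, and 0 had with DESeq2. By edgeR 1 was left without FBF-1 oogenic replicate 3 (mut-16), 2 without FBF-2 oogenic replicate 1 or 2 (mut-16 and rrf-3) and 3 without FBF-2 oogenic replicate 3 (mut-16, mut-15 and mut-7), while with no count minimum there were 2 (rrf-3 and mut-15). rrf-1, mut-7 and mut-16 had log2 fold changes, FBF-1 over FBF-2, of -0.51 (SE 0.15), -0.53 (SE 0.15) and -0.88 (SE 0.15), with edgeR adjusted p = 0.00459, 0.00258 and 1.41e-07. rrf-3 and mut-15 lay the other way, at 0.66 (SE 0.16) and 0.72 (SE 0.21), with edgeR adjusted p = 0.000299 and 0.00371. These values depended on the scaling. In RPM, rrf-1 held 107, 237 and 257 RPM with FBF-1 and 253, 233 and 245 RPM with FBF-2, which overlapped. mut-7 held 373, 335 and 330 RPM with FBF-1 and 386, 325 and 297 RPM with FBF-2, which overlapped as well.

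mut-16 kept its direction in RPM, with 213, 202 and 217 RPM with FBF-1 and 290.0, 272 and 256 RPM with FBF-2. rrf-3 held 160, 321 and 363 RPM with FBF-1 and 159, 162 and 136 RPM with FBF-2, where the lowest FBF-1 value comes from 3 counts in the smallest library. mut-15 held 107, 141.8 and 164 RPM with FBF-1 and 54.8, 30.7 and 97.5 RPM with FBF-2. Those groups did not overlap, although the lowest FBF-1 value comes from 2 counts in the smallest library. mut-15 was among 4 RNAs in 10 without overlap, against 30.9% of all RNAs.

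Scaled by library size, the median RNA moved from a log2 fold change of 0.01 to one of 0.52. rrf-3, mut-15 and mut-2 were then called higher with FBF-1, at log2 fold changes of 1.17, 1.23 and 1.07, as were 874 of all 4737 RNAs tested. rrf-1 stood at 0.00216 and mut-7 at -0.02. mut-16 remained lower with FBF-1 at -0.37, but its edgeR adjusted p was 0.0435. Without FBF-2 oogenic replicate 3, which held the highest mut-15 level of the FBF-2 libraries, mut-15 was called at 1.21 (edgeR adjusted p = 0.000225). With DESeq2 the adjusted p was 0.0344 for mut-16 and 0.286 to 0.348 for rrf-1, mut-7, rrf-3 and mut-15.

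**Figure D4:**
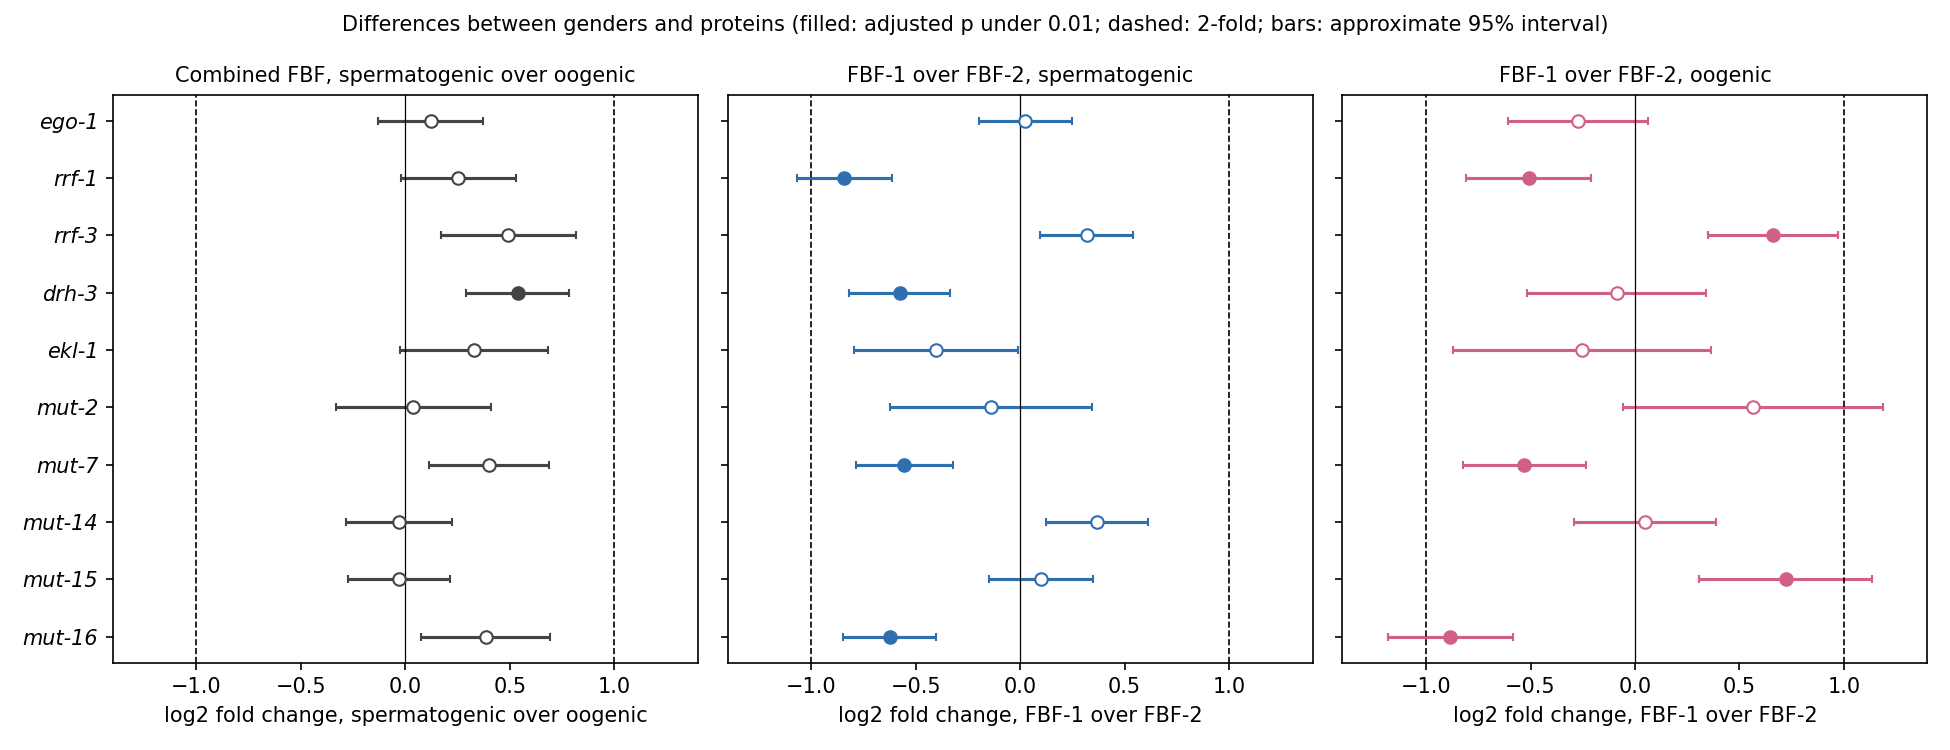
Log2 fold changes of the 10 RNAs between germline genders and, in each gender, of FBF-1 over FBF-2 (horizontal axes in log2 units, with approximate 95% intervals; filled points have an adjusted p under 0.01 and dashed lines mark 2-fold). All points lay inside 2-fold, and rrf-1, mut-7 and mut-16 were lower with FBF-1 than with FBF-2 in both genders under TMM scaling, which for rrf-1 and mut-7 in oogenic germlines was lost with library-size scaling (0.00216 and -0.02).

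The interaction of protein and gender tested whether the ratio of FBF-1 to FBF-2 differed between genders. By edgeR 0 of 10 RNAs were called, against 5.27% of 7501, and DESeq2 called 0, against 105 of 7501. At an unadjusted edgeR p under 0.05 there were 2, against 23.8% of all RNAs. Those were mut-15 at -0.63 (SE 0.25, edgeR adjusted p = 0.0933) and drh-3 at -0.50 (SE 0.25, edgeR adjusted p = 0.199), on the log2 scale, spermatogenic minus oogenic. Library-size scaling called 4 of the 10, mut-15, drh-3, rrf-1 and rrf-3, against 1290 of 7501 RNAs. It moved the median of all RNAs from -0.07 to -0.52. Without FBF-2 oogenic replicate 3, mut-15 was called at -1.11 (edgeR adjusted p = 0.00944).

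Of the wider small-RNA pathway, 23 RNAs were listed, among them further mutator components and nucleases, Dicer and the ERI proteins. 13 of the 22 tested were called higher with the antibody in spermatogenic germlines, and 10 of 21 in oogenic germlines, against the same 29.2% and 29.6%. At a minimum average of 100 counts these were 11 of 12 and 7 of 9, against 2032 of 3669 and 1354 of 2560 RNAs. With TMM, and with DESeq2, 9 of the 22 and 6 of the 21 were called. Of all RNAs tested, 1795 of 8269 and 991 of 6424 were called higher with TMM. With DESeq2 these were 1509 of 8269 and 768 of 6424. With library sizes, TMM and DESeq2, 0 partners were called lower. Among those called in spermatogenic germlines were ZC477.5, T23G4.3 and Y87G2A.7, named rde-8, nyn-1 and nyn-2 in the annotation, which encode a group of related proteins with a nuclease-like domain.

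T23G4.3 had 486 counts with the antibody and 1 without in spermatogenic germlines, a ratio of depth-scaled counts of 28.2 with a 95% counting interval of 5.04 to 1116. Y87G2A.7 had 991 and 3 counts, a ratio of 19.2 (6.54 to 93.1). ZC477.5 had 113 counts with the antibody and 0 without, so that it cannot be ranked among the partners. Its level was 2.19-fold the one that 3 control counts would give, and the 95% counting interval began at 1.75. T23G4.3 and Y87G2A.7 were called in all 17 alternatives that tested them, and ZC477.5 in 5 of 15. In oogenic germlines the largest values were those of T23G4.3, with 218 counts and 2 counts, a ratio of 16.4 (4.48 to 136), of eri-7 at a log2 fold change of 3.31 (SE 0.52) and of eri-3 at 2.95 (SE 0.50).

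Between germline genders 0 of 22 partners were called by edgeR and by DESeq2, against 14.9% of all RNAs by edgeR and 1075 of 7501 by DESeq2. One was called lower in spermatogenic germlines in FBF-1 libraries alone (eri-7, log2 fold change -1.07) and another in FBF-2 libraries alone (eri-6, -1.27), both named after their values were seen. Between the proteins in oogenic germlines 2 of 18 partners were called, against 8.06% of all RNAs. These were eri-3 and eri-7, a Dicer partner and part of a helicase of the ERI pathway that RRF-3 serves. eri-3 averaged 163 ± 43.7 RPM with FBF-1 and 37.4 ± 13.4 RPM with FBF-2, and eri-7 175 ± 19.7 RPM and 51.9 ± 16.7 RPM (SD, n = 3 each). The FBF-1 means include the smallest library, where 1 count stood for 53.3 RPM. For eri-3 and eri-7 the log2 fold changes, FBF-1 over FBF-2, were 1.29 (SE 0.24, edgeR adjusted p = 1.49e-06) and 1.22 (SE 0.21, edgeR adjusted p = 2.17e-07). With DESeq2 both missed the threshold, with adjusted p = 0.0256 and 0.0274.

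Across the 18 libraries the RNAs with the pattern most like mut-7 were cyn-15, apx-1 and C55B7.11, with Pearson's r of log2(RPM + 1) of 0.992, 0.982 and 0.981 among 5489 RNAs compared. Among the 10, mut-14 was the closest to mut-7 (r = 0.957). ego-1 and mut-2 followed each other (r = 0.924), and both have 0 counts in the smallest library. These values describe libraries that share the split into FBF and control samples and differ in depth.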

How the data were processed

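The deposited values are read counts per gene, not normalized. By the study's methods, reads were split by barcode and clipped, aligned locally with STAR, filtered for unique mapping and a STAR score of at least 20, collapsed by barcode and counted over exons with HTSeq. The processing notes also name Novoalign, without a role. Genome build, annotation, versions and strand setting are not given in the sources used here. Reads on no gene (9.54% to 20.2%) and ambiguous reads (0.568% to 1.93%) were left out.

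Counts were tested with edgeR 4.0.16 (R 4.3.3, limma 3.58.1; quasi-likelihood, robust) on RNAs that averaged 20 or more counts in the FBF libraries compared (controls: 5). TMM scaling was used, except library sizes for comparisons with controls, and for the interaction of antibody and gender these without rRNA, tRNA and mitochondrial genes. RPM (reads-per-million) are relative to all counts on genes. Each count is about 1 cross-linked fragment, and intervals (95%, exact) and floors (3 counts) cover counting error only. With 3 against 3 replicates an exact permutation cannot go below p = 0.1. Coordinates and exon lengths are from Ensembl release 115 (WBcel235). Alternatives were DESeq2 1.42.0, other scalings, count minimums (none, 100) and controls, single proteins, the replicate block and each replicate left out. Scripts were tested on simulated data (Python 3.11.15, numpy 2.4.6, pandas 2.3.3, scipy 1.17.1, matplotlib 3.10.9).

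The text names all 10 members, up to 3 called partners per direction and comparison, and the 3 RNAs most correlated with the member of highest FBF level. The members and lists were chosen with earlier results of these data known. A match of FBF binding elements in 3′UTRs was not analysed here.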

Additional observations from a re-analysis of the deposited data

Results flagged for a closer look

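The ratio of FBF-1 to FBF-2 on eri-7, a partner RNA of the ERI pathway, differed between germline genders. The interaction was -1.17 on the log2 scale, spermatogenic minus oogenic (SE 0.27, edgeR adjusted p = 0.000894), with 90.8 ± 14.5 RPM and 82.9 ± 13.4 RPM for FBF-1 and FBF-2 in spermatogenic germlines and 175 ± 19.7 RPM and 51.9 ± 16.7 RPM in oogenic germlines (SD, n = 3 each). The oogenic FBF-1 mean includes the smallest library, where 1 count stood for 53.3 RPM. With DESeq2 the adjusted p was 0.0923, and without FBF-1 oogenic replicate 3 the edgeR adjusted p was 0.0145 (interaction -1.07).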

How the results depend on the processing

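With the replicate number as a block, 9 of the 10 RNAs were called over the control in each gender and 0 in every other comparison, as without it. Of all RNAs, the block called 2133 of 8269 higher over the spermatogenic and 1885 of 6424 over the oogenic control. It called 1125 of 7501 between genders, 361 of 6203 and 330 of 4737 between the proteins in spermatogenic and oogenic germlines, and 381 of 3137 between controls. For the interactions it called 140 of 7305 (antibody) and 390 of 7501 (protein). At an adjusted p under 0.01 and any fold, the block left 1 of 5 RNAs between the proteins in oogenic germlines (mut-16) and 0 of 1 between genders. Between the proteins, correlations of deviations at the same replicate number were -0.20 to -0.094 in spermatogenic and -0.029 to 0.032 in oogenic germlines. Most combined replicates join different replicate numbers, so their correlations (-0.20 to 0.18 between genders) cannot show a pairing. Leaving out 1 replicate gave 8 to 9 RNAs called over the control in each gender. It gave 0 to 1 between the proteins in oogenic germlines and 0 to 1 for protein and gender. There library-size scaling called 3 and 4 of the 10, against 933 of 4737 and 1290 of 7501 RNAs. Without rRNA, tRNA and mitochondrial genes in the denominator, the summed level of the 10 RNAs was 2907 and 2319 RPM in spermatogenic and oogenic FBF replicates and 481 and 558 RPM in the controls.

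No value that changed sign was called over 2-fold under either setting. The changes between genders were ego-1 in FBF-2 libraries alone (-0.074), mut-14 with library-size scaling (0.19) and in FBF-1 libraries alone (0.17), mut-15 with library-size scaling (0.18), with 12 separate libraries (0.12) and in FBF-2 libraries alone (0.46), and mut-2 in FBF-1 libraries alone (-0.16). Over the oogenic control, ekl-1 gave -0.25 with DESeq2, -0.27 with TMM, -0.17 without rRNA, tRNA and mitochondrial genes and -0.31 with both. Between the proteins in oogenic germlines library-size scaling gave ego-1 0.24, drh-3 0.42, rrf-1 0.00216 and ekl-1 0.25, drh-3 gave 0.10 with no count minimum and 0.038 with library sizes without rRNA, tRNA and mitochondrial genes, and mut-14 gave -0.00105 without those genes. Between controls mut-16 gave -0.026 with no count minimum. Leaving out 1 replicate, ranges that crossed 0 between genders were -0.14 to 0.046 for mut-14, -0.074 to 0.039 for mut-15 and -0.066 to 0.28 for mut-2. Between the proteins they were -0.038 to 0.059 for ego-1, -0.012 to 0.20 for mut-15 and -0.49 to 0.19 for mut-2 in spermatogenic and -0.10 to 0.34 for mut-14 in oogenic germlines, and between controls -0.11 to 0.50 for mut-16. The cause was not tested.

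Counts of all RNAs called changed by over 1.5 times in some settings. Between genders 766 were higher and 353 lower, against 1880 and 939 with no count minimum, 120 and 130 with a minimum of 100, and 282 and 272 in FBF-2 libraries alone. Over the oogenic control, 1902 and 109 became 1161 and 70 without control replicate 2 and 1150 and 52 in FBF-2 libraries alone. Between the proteins, 248 and 107 in spermatogenic germlines became 358 and 247 with no minimum and 66 and 42 at 100, and 187 and 195 in oogenic germlines became 874 and 59 with library sizes, 296 and 59 with library sizes without rRNA, tRNA and mitochondrial genes, 27 and 88 with DESeq2 and 70 and 68 at 100. Between controls 197 and 211 became 390 and 242 with no minimum and 61 and 93 at 20. For antibody and gender 76 and 63 became 128 and 125 with rRNA, tRNA and mitochondrial genes kept in, and for protein and gender 255 and 140 became 95 and 10 with DESeq2, 120 and 1170 with library sizes and 176 and 72 without FBF-1 oogenic replicate 3. Chosen after seeing the data were TMM without rRNA, tRNA and mitochondrial genes over the controls, library sizes without those genes between genders and between the proteins in oogenic germlines, and the oogenic enrichment without the smallest library. Depth limits the comparisons with controls, which held 0 to 34 counts per gender on each of the 10 RNAs.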
